A study of Mus musculus with 6 samples.

Results

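Expression of 10 genes that set mitochondrial and fatty acid metabolism was examined in the gastrocnemius, a mixed calf muscle, of young and aged mice. They are the coactivators Ppargc1a (PGC-1α) and Ppargc1b (PGC-1β), the nuclear receptors Ppara, Ppard, Esrra (ERRα) and Esrrg (ERRγ), the mitochondrial DNA packaging and transcription factor Tfam, the nuclear respiratory factor Nrf1, and the NAD-dependent deacetylases Sirt1 and Sirt3. These genes were found on the array by matching the RefSeq accession of each probe to its mouse symbol. They have 18 of the 55681 probes, and all 10 are among the 20900 genes that could be tested. Both groups were male C57BL/6J mice with no treatment, 3 young mice of 13 weeks and 3 aged mice of 26 months, and total RNA of each mouse was hybridized to 1 single-colour array. The labels give each array as a sample of its own, so the spread between arrays is the spread between mice together with that of the assay. The comparison is of separate mice at these ages only.

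PGC-1α and PGC-1β do not bind DNA themselves. They are recruited by transcription factors, among them the PPARs, the ERRs and NRF1, to promoters of genes for oxidative phosphorylation, the citric acid cycle and fatty acid oxidation, and NRF1 in turn activates genes such as Tfam, whose product serves the mitochondrial genome. SIRT1 deacetylates PGC-1α in the nucleus, and SIRT3 deacetylates enzymes within mitochondria. Oxidative fibres of skeletal muscle are known for more PGC-1α and more mitochondria than glycolytic fibres. Message level is 1 layer of this system, as PGC-1α is also controlled by phosphorylation and deacetylation, which arrays do not measure.

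Promoters are shown to give the sequence around the start sites of the genes the results turn on. Esrra and Sirt3 were the members whose aged mice were all below their young mice, and Ppara and Sirt1 were members in which aged mouse 1 differed from the other aged mice. Each run is the RefSeq window of GRCm38.p6, 250 bases before to 50 bases after a transcription start, written 5′ to 3′ on the strand of the gene, and capitals mark a match to a motif named below. The windows are chr19:6921759-6922058 (minus strand) for Esrra, chr7:140882260-140882559 (minus strand) for Sirt3, chr15:85735526-85735825 (plus strand) for Ppara and chr10:63338986-63339285 (minus strand) for Sirt1.
Esrra: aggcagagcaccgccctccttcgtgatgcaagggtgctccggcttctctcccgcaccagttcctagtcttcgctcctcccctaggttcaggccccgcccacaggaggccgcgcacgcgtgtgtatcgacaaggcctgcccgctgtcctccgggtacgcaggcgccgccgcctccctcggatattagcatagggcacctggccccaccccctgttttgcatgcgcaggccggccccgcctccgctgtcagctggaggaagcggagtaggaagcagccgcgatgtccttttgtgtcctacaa
Sirt3: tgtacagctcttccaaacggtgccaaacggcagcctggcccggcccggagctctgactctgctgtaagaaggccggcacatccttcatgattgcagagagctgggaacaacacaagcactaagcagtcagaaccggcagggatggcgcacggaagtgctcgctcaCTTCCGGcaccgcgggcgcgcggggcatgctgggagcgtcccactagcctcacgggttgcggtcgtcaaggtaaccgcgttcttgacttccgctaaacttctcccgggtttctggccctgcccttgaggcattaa
Ppara: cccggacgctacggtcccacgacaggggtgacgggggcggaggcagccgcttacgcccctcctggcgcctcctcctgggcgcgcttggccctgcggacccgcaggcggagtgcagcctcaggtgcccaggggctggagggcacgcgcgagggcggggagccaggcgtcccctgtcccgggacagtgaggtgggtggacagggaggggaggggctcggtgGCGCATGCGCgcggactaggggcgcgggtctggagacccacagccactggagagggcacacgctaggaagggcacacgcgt
Sirt1: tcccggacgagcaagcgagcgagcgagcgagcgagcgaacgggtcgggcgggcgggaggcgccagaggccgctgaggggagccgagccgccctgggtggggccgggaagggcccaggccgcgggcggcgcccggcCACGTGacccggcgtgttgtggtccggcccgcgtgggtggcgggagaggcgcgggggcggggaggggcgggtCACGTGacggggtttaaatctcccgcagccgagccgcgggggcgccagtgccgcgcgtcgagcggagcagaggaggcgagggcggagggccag

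RefSeq windows were found for 9 of the 10 genes, 14 windows in all, and 8 motifs were searched in them on both strands. The Ppara window holds the palindromic NRF-1 motif, which is in 0.971% of all 32851 windows. The Sirt1 window holds the E-box CACGTG at 2 places, a motif in 7.15% of all windows. The Sirt3 window shown holds the ETS core CCGGAAG, as bound by GABP, on the opposite strand, and the Tfam window (chr10:71237995-71238294, minus strand) holds it on the strand of the gene. That core is in 8.86% of all windows. Sirt3 has another window (chr7:140881820-140882119, minus strand), with 0 matches to the 8 motifs. The ERR element TNAAGGTCA (1.28% of all windows), the receptor half-site AGGTCA that it contains (16.3%), the direct repeat of that half-site with a single base between (DR1, 0.0396%), the cAMP response element TGACGTCA (1.79%) and the YY1 motif AAGATGGCG (1.4%) had no exact match in the windows of these genes. A match gives the letters of the window and is not a measured binding site.

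Levels are given as scaled log2 signals, the log2 of the background-subtracted signal of a probe minus the 75th percentile of its array, so that 0 is the signal at that percentile. A log2 fold change is the mean of the aged mice minus the mean of the young mice, and its adjusted p comes from limma with Benjamini-Hochberg adjustment over the 20900 genes. At a threshold of 0.05, 53 genes passed (0.254%), 41 higher (0.196%) and 12 lower (0.0574%) in aged mice. This split was 26 higher and 16 lower when arrays were scaled to their median, and 38 higher and 22 lower after normexp background correction. Of the 10 genes examined here, 0 passed by limma, while 2 of 10 had an unadjusted p under 0.05, both of them lower in aged mice, where 14.4% of all genes did (8.36% lower and 6.07% higher). In 2 of the 10 genes the 3 aged mice were all below the 3 young mice, as they were in 13.9% of all genes. The mean of the aged mice was the lower one in 8 of 10 genes, against 56.9% of all genes, and the median log2 fold change was -0.16, against -0.06 over all genes. After normexp correction these medians were -0.07 and -0.06, and with the row of the slide as a block the median of the 10 genes was 0.20, with 8 of 10 higher.

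**Figure D1:**
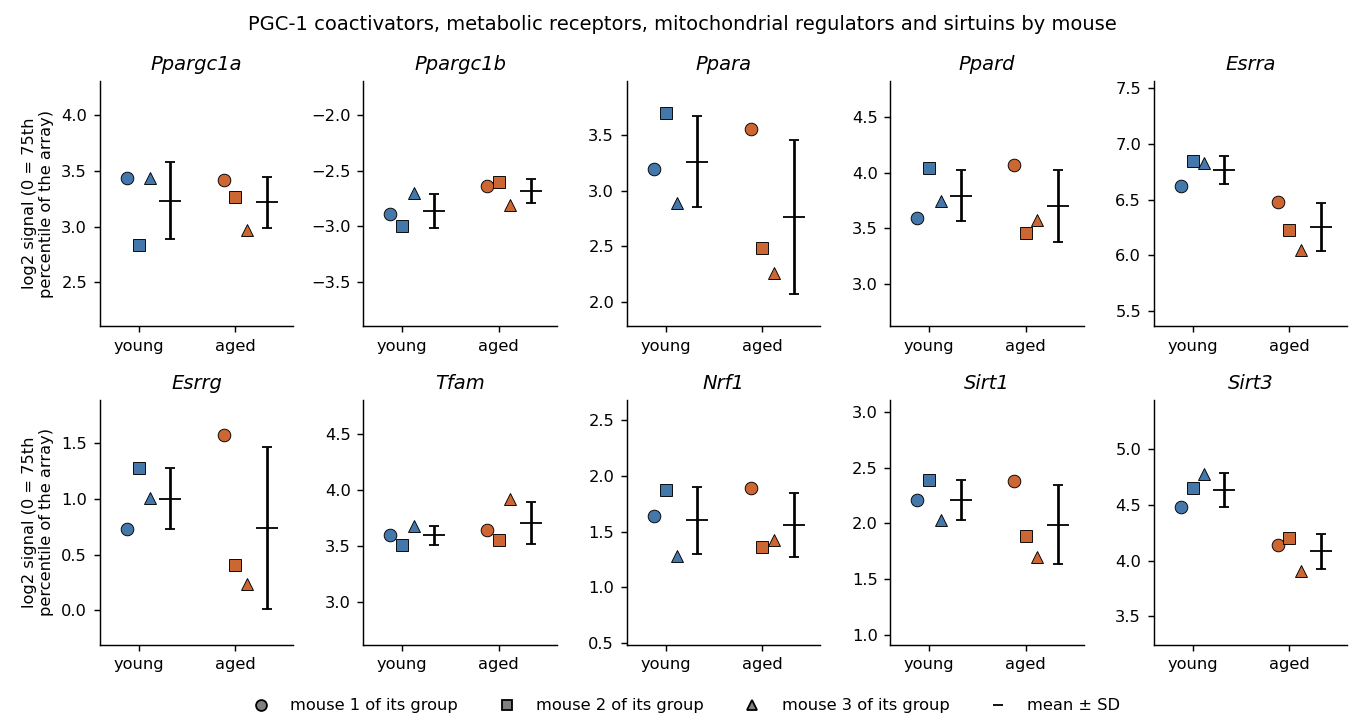
Scaled log2 signal (vertical axis) of each of the 10 genes in each mouse, young in blue and aged in orange, with the mean ± SD of each group of 3 beside its points. Only in Esrra and Sirt3 do the 3 aged mice all lie below the 3 young mice.

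Among the coactivators, Ppargc1a was at nearly the same mean level in both groups. In young mice 1, 2 and 3 its scaled log2 signal was 3.43, 2.83 and 3.43, and in aged mice 1, 2 and 3 it was 3.42, 3.27 and 2.97. The aged mice lay within the range of the young mice. The log2 fold change was -0.02 ± 0.23 (SE, n = 3 and 3, adjusted p = 0.978 by limma), with a sign that turned to 0.014 under quantile normalization and to 0.017 when scaled on probes detected on all arrays. The 95% interval ran from -0.57 to 0.53, so aged levels between 0.676-fold and 1.45-fold of the young level are within it. A dimmer probe of Ppargc1a gave a difference of -0.10, with aged mouse 1 at 0.48 and aged mice 2 and 3 at -0.39 and -0.56.

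Ppargc1b, the other coactivator, was measured by a single dim probe. Its scaled log2 signal was -2.89, -3.00 and -2.70 in the young mice and -2.64, -2.60 and -2.81 in the aged mice, well above background on all 6 arrays. Aged mice 1 and 2 were above every young mouse, and aged mouse 3 lay among them. The mean was higher in aged mice by 0.18 ± 0.16 (SE, n = 3 and 3, adjusted p = 0.636 by limma), and by 0.0060 after normexp background correction, which acts most on dim probes.

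The genes whose pattern over the 6 arrays was most like each coactivator were found among 12683 genes by Pearson's r, given as a description. For Ppargc1a they were Stard13 (r = 0.988), Cdh26 (r = 0.954) and Sp140 (r = 0.952). For Ppargc1b they were Lrrn3 (r = 0.995), the myosin light chain Myl4 (r = 0.987) and Prdm8 (r = 0.983). Like Ppargc1b, Lrrn3 and Prdm8 were dim, with young and aged means of -2.92 and -2.47 for Lrrn3 and -1.93 and -1.42 for Prdm8. Myl4 was brighter, at 4.06 and 4.84. The r values given are the highest of all candidates, over arrays that share the age groups.

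Of the PPARs, which bind fatty acids as ligands, Ppara had the lower mean in aged mice with the widest spread. Its scaled log2 signal was 3.20, 3.69 and 2.89 in the young mice and 3.55, 2.48 and 2.26 in the aged mice. Aged mouse 1 was among the young mice, whereas aged mice 2 and 3 were below all of them. The log2 fold change was -0.49 ± 0.38 (SE, n = 3 and 3, adjusted p = 0.576 by limma). The other probes of Ppara differed by -0.39 and -0.35, and on both of them aged mouse 1 was again within the young range and aged mice 2 and 3 below it.

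Ppard, the PPAR that is known for its role in endurance metabolism of muscle, was at 3.59, 4.04 and 3.74 in the young mice and 4.06, 3.46 and 3.58 in the aged mice. Aged mouse 1 was the highest of the 6 and aged mice 2 and 3 were the lowest. Its log2 fold change was -0.09 ± 0.22 (SE, n = 3 and 3, adjusted p = 0.869 by limma).

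Of the ERRs, orphan receptors that act with PGC-1 on oxidative genes, Esrra was lower in each aged mouse. Its scaled log2 signal was 6.62, 6.85 and 6.83 in the young mice, a mean of 6.77 ± 0.13 (SD, n = 3). It was 6.48, 6.23 and 6.05 in the aged mice, a mean of 6.25 ± 0.22 (SD, n = 3). The groups did not overlap, and the gap between the lowest young and the highest aged mouse was that between young mouse 1 and aged mouse 1. The log2 fold change was -0.51 ± 0.18 (SE), that is 0.700-fold with a 95% interval of 0.522 to 0.939, and it did not pass the threshold after adjustment (unadjusted p = 0.0239, adjusted p = 0.285 by limma). Leaving out 1 mouse at a time gave log2 fold changes from -0.63 to -0.41, with the smallest adjusted p, 0.159, without aged mouse 1.

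Esrrg was at 0.73, 1.28 and 1.01 in the young mice and at 1.57, 0.41 and 0.24 in the aged mice. Aged mouse 1 was the highest of all 6 mice and aged mice 2 and 3 the lowest. The mean log2 fold change was -0.26 ± 0.37 (SE, n = 3 and 3, adjusted p = 0.769 by limma), and a second probe differed by -0.12 with the same aged mouse highest. For Esrrg the difference among aged mice thus exceeded that between the group means.

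**Figure D2:**
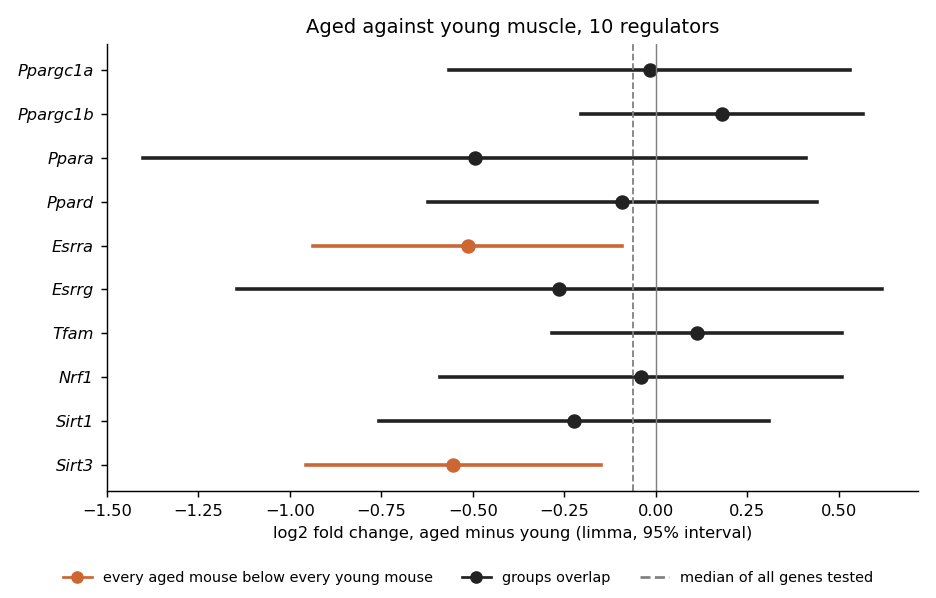
Log2 fold change of aged over young mice (horizontal axis) for each of the 10 genes, with the 95% interval from limma and a dashed line at the median of all genes. The intervals of Esrra and Sirt3 lie below 0 before adjustment over all genes, and those of the other 8 genes include 0.

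Tfam and Nrf1, which connect the coactivators to mitochondrial transcription, differed little between the groups. Tfam was at 3.59, 3.51 and 3.68 in the young mice and at 3.65, 3.56 and 3.92 in the aged mice. Only aged mouse 3 was above the young range. The mean was higher in aged mice by 0.11 ± 0.17 (SE, n = 3 and 3, adjusted p = 0.783 by limma), but at -0.036 with median scaling and -0.049 after normexp correction. Other probes of Tfam gave differences of 0.07 and 0.19.

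Nrf1, here the nuclear respiratory factor and not the NFE2-like factor of the same short name, was at 1.65, 1.88 and 1.29 in the young mice and at 1.90, 1.37 and 1.43 in the aged mice. Aged mouse 1 was the highest and young mouse 3 the lowest. Its mean differed by -0.04 ± 0.23 (SE, n = 3 and 3, adjusted p = 0.944 by limma), and its other probes differed by 0.04 and -0.07.

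Of the sirtuins, Sirt1 was at 2.21, 2.39 and 2.03 in the young mice and at 2.38, 1.88 and 1.69 in the aged mice. Aged mouse 1 lay among the young mice and aged mice 2 and 3 below them. The mean of the aged mice was lower, with a log2 fold change of -0.22 ± 0.22 (SE, n = 3 and 3, adjusted p = 0.670 by limma).

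Sirt3, the mitochondrial deacetylase, had the smallest p of the 10 genes. Its scaled log2 signal was 4.48, 4.65 and 4.78 in the young mice, a mean of 4.64 ± 0.15 (SD, n = 3), and 4.14, 4.20 and 3.91 in the aged mice, a mean of 4.08 ± 0.16 (SD, n = 3). All aged mice were below all young mice. The log2 fold change was -0.55 ± 0.17 (SE), that is 0.681-fold with a 95% interval of 0.515 to 0.901, and it did not pass after adjustment (unadjusted p = 0.0143, adjusted p = 0.237 by limma). Leaving out 1 mouse at a time gave -0.63 to -0.46. Esrra and Sirt3 each have a single probe on the array, so no other probe bears on either value. In RNA of a whole muscle, fewer cells of a type and less of a message per cell cannot be told apart.

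The aged mice were not alike in these genes. Against the mean of the young mice, the median log2 deviation over the 10 genes was 0.20 for aged mouse 1, whereas aged mice 2 and 3 were at -0.33 and -0.39. Aged mouse 1 was below the young mean in 2 of 10 genes, Esrra by -0.29 and Sirt3 by -0.49, while aged mice 2 and 3 were each below it in 8 of 10. Over all genes tested, the median deviations were -0.07, -0.01 and -0.07. Over the genes with a mean scaled log2 signal of at least 6, as Esrra has, they were -0.27, -0.02 and -0.10. The array of aged mouse 1 lay on the same row of the slide as the 3 young mice, and those of aged mice 2 and 3 on the other row, so row and mouse cannot be told apart among the aged. With the row as a block, which leaves aged mouse 1 against the young mice, 6 of the 10 log2 fold changes turned positive. Esrra was then at -0.29 and Sirt3 at -0.49. Negative control spots had a mean net signal of 61.3 in aged mouse 1, against 51.9 to 55.1 in the remaining mice, and the part of this in the deviations was not tested. Adipocyte markers were split in a like way, with median deviations of 0.20, -0.40 and -0.40 in aged mice 1, 2 and 3 over 9 genes. For 9 endothelial markers these were 0.03, -0.33 and -0.63. Fibroblast markers (-0.53, -0.32 and -0.05), macrophage markers (0.61, 0.42 and 0.59) and erythrocyte markers (-0.77, -0.76 and -1.50) were not split so. Nor were cardiac and smooth muscle markers (-0.34, -0.09 and -0.31). In skeletal muscle markers (-0.23, 0.01 and -0.01) and fast glycolytic fibre markers (-0.42, -0.03 and -0.05) aged mouse 1 stood apart in the other direction, as the lowest. The part of these cells was not tested either.

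**Figure D3:**
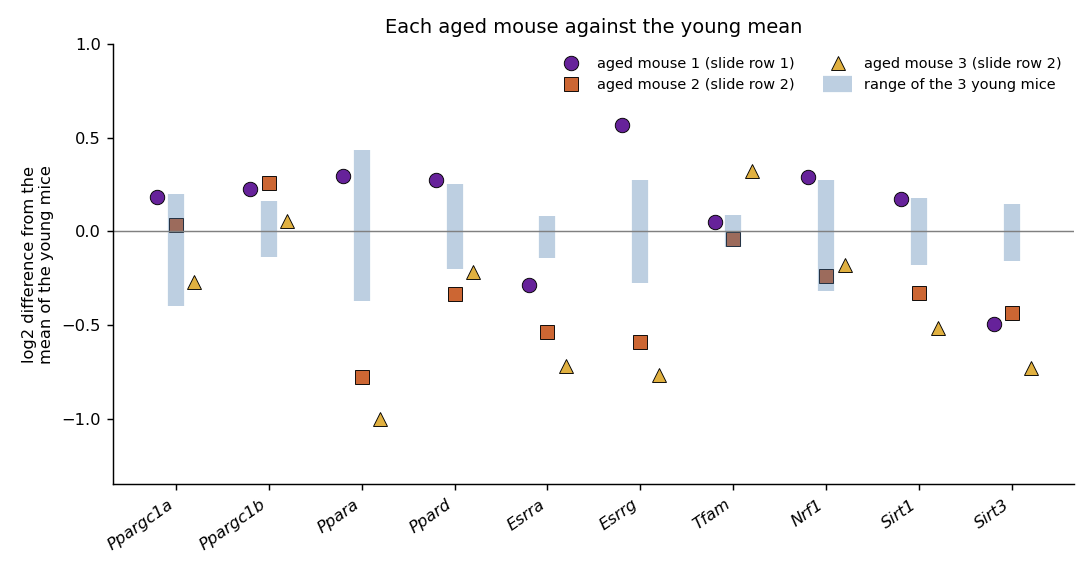
Deviation of each aged mouse from the mean of the 3 young mice (vertical axis, log2) for each of the 10 genes, with the range of the young mice as a blue bar. Aged mouse 1 is below 0 only in Esrra and Sirt3, while aged mice 2 and 3 are below 0 in most genes.

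Genes around these members were read in 7 lists, in which 147 genes were tested and 0 passed by limma. The smallest adjusted p was 0.104. No list is given a test. The aged mice were all below the young mice in 13.9% of all genes and all above them in 7.92%.

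Other coactivators and corepressors were evenly divided, with 9 of 18 higher and 9 lower in mean and a median log2 fold change of -0.03, which was 0.02 under quantile normalization and 0.12 without aged mouse 1. In 4 of the 18 (22.2%, against 13.9% of all genes) the aged mice were all below the young mice. These were the p160 coactivators Ncoa2 and Ncoa3, their partner Ncoa6 and the acetyltransferase Crebbp. Ncoa3 differed by -0.43 (adjusted p = 0.333 by limma), but by -0.05 when all its probes were averaged. Lpin1, a coactivator of PPARα and PGC-1α in fat metabolism, was at 5.36, 4.86 and 1.27 in the young mice and between 5.14 and 5.51 in the aged mice. Its mean difference was 1.45, and it was 0.17 without young mouse 3.

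Other metabolic nuclear receptors were mostly lower in mean in the aged mice. Of 18 listed, 16 could be tested, 15 had the lower mean in aged mice, and the median log2 fold change was -0.26 (-0.42 without aged mouse 1). In 5 of the 16 (31.2%) the aged mice were all below the young mice, against 13.9% of all genes. These were the retinoid X receptors Rxra (-0.58) and Rxrb (-0.42), which pair with PPARs on DNA, the thyroid hormone receptor Thra (-0.79), Nr2c1 (-0.51) and the activity-induced Nr4a1 (-1.23). Nr4a1 was at 7.75, 7.16 and 7.63 in the young mice and 5.57, 6.90 and 6.38 in the aged mice (adjusted p = 0.222 by limma). The exception was Nr1h3 (LXRα), higher by 0.08 and lower by -0.07 with median scaling.

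Regulators of PGC-1, such as AMP-activated protein kinase, p38 and calcium signalling genes, had 7 higher and 12 lower means among 19 tested, with a median of -0.09. The groups did not overlap in 1 gene in each direction (5.26% each, against 13.9% lower and 7.92% higher of all genes). They were Creb1, whose product binds the Ppargc1a promoter, at -0.66 (adjusted p = 0.333 by limma, and -0.36 without aged mouse 1), and the calmodulin kinase gene Camk2b at 0.45. Prkag3, a muscle subunit of AMP-activated protein kinase, had the largest higher mean, 0.52, and this was -0.41 with the slide row as a block.

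Other sirtuins and NAD metabolism genes had 7 higher and 10 lower means among 17 tested, with a median of -0.05. The aged mice were all below the young mice in 2 of the 17 (11.8%), a share under the 13.9% of all genes. These were Nampt (-0.39), which makes nicotinamide mononucleotide from nicotinamide, and Naprt (-0.38). The nicotinamide riboside kinase Nmrk2 showed a split among the aged mice. It was at 4.91, 3.44 and 5.21 in the young mice and at 4.77, 8.72 and 8.82 in the aged mice. Aged mouse 1 was thus within the young range and aged mice 2 and 3 far above it. The difference in mean was 2.92 (adjusted p = 0.313 by limma), and it was 4.25 with an adjusted p of 0.0349 by limma when aged mouse 1 was left out. Without aged mouse 1, the young arrays lay on 1 slide row and the aged arrays on the other, so age and row coincide there. With the slide row as a block, the Nmrk2 difference was 0.25.

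Genes of mitochondrial DNA replication and transcription, the setting in which Tfam acts, had 11 higher and 9 lower means among 20 tested. The median was 0.04, and it was -0.11 with median scaling. In 4 of them the aged mice were all above the young mice, namely Tfb1m (0.59), Tefm (1.12), Mterf1a (0.33) and Mterf3 (0.36), which is 20% of the list against 7.92% of all genes. Tefm, the transcription elongation factor of mitochondria, was at 1.53, 0.98 and -0.70 in the young mice and between 1.53 and 1.87 in the aged mice. Its highest young mouse was at 1.528 and its lowest aged mouse at 1.531, so these groups were nearly tied. The difference of Tefm was 0.47 without young mouse 3. Endog was lower in each aged mouse (-0.47, adjusted p = 0.303 by limma).

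PPAR target genes, which serve uptake and oxidation of fatty acids, had 8 higher and 17 lower means among 25 tested, with a median of -0.23. The median was -0.12 under quantile normalization, -0.14 after normexp correction, 0.13 with the slide row as a block, and close to 0 without young mouse 2 (12 higher and 13 lower). They were split among the aged mice as Ppara was, since 8 of 25 were below the young mean in aged mouse 1, but 20 and 18 of them in aged mice 2 and 3. Median deviations were 0.13, -0.43 and -0.27. Cpt1b, which brings fatty acids into mitochondria, had the largest lower mean and was at 5.57, 6.47 and 6.38 in the young mice and 5.95, 3.18 and 5.47 in the aged mice. Its log2 fold change of -1.28 (adjusted p = 0.449 by limma) was -0.43 without aged mouse 2. Angptl4, an inhibitor of lipoprotein lipase, had the largest higher mean, 1.98 (adjusted p = 0.322 by limma). The aged mice were all below the young mice in 2 of the 25 (8%), a share under the 13.9% of all genes. These were the fatty acid binding protein gene Fabp3 (-0.23) and the electron transfer enzyme gene Etfdh (-0.51).

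**Figure D4:**
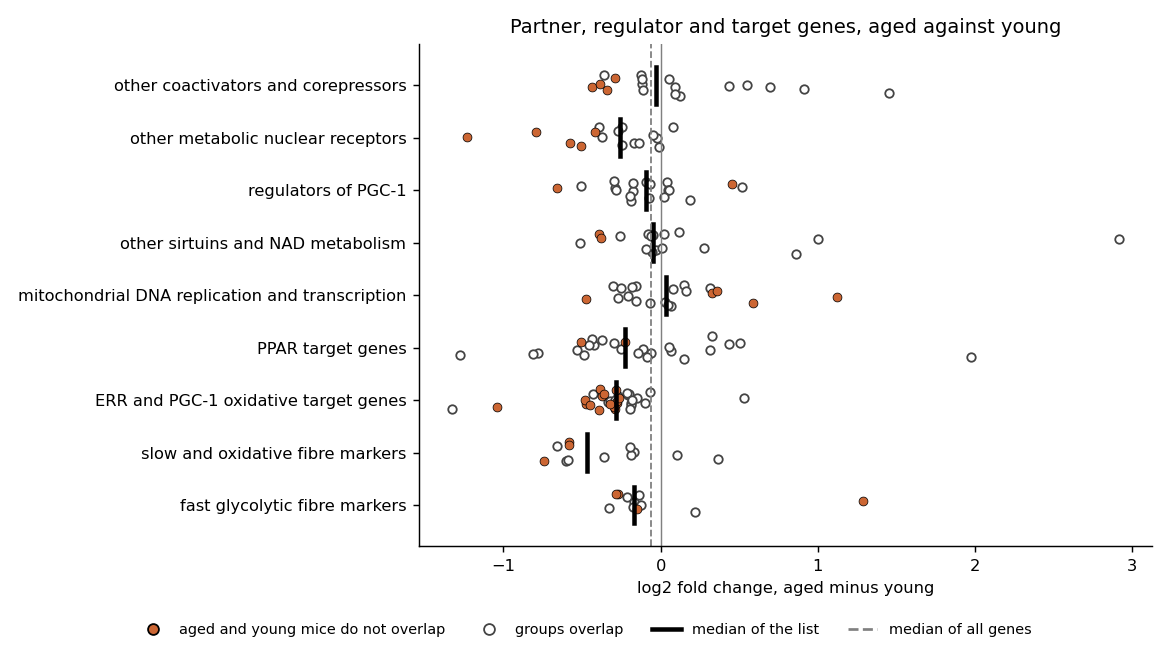
Log2 fold change of aged over young mice (horizontal axis) of each tested gene in the 7 pathway lists and in the slow and fast fibre marker lists, filled where the groups do not overlap, with a bar at the median of each list and a dashed line at the median of all genes, -0.06. The oxidative target genes lie almost all below 0, with a median of -0.29.

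ERR and PGC-1 oxidative target genes, most of them of the citric acid cycle and the respiratory chain, were lower in mean in aged mice in 31 of 32 cases, with a median log2 fold change of -0.29. In 15 of the 32 (46.9%) the aged mice were all below the young mice, against 13.9% of all genes. Unlike the PPAR targets, most of them were below the young mean in each aged mouse. These were 29, 30 and 30 of 32 in aged mice 1 to 3, and 28 in all 3. Median deviations were -0.33, -0.20 and -0.32. The median was -0.16 under quantile normalization and -0.43 with median scaling, a scaling that moved the median of all genes to -0.21.

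Ckmt2, the mitochondrial creatine kinase of muscle, had the lowest p in the 7 lists and is named for that value. It was at 9.23, 9.59 and 9.57 in the young mice and at 8.61, 8.43 and 8.23 in the aged mice. The groups did not overlap, and the level in aged mice was 0.486-fold (log2 fold change -1.04 ± 0.18, SE, adjusted p = 0.104 by limma). Cycs, cytochrome c, had the largest lower mean, -1.33 (adjusted p = 0.287 by limma), at 7.65, 8.54 and 8.68 in the young mice and 7.82, 6.92 and 6.15 in the aged mice. Aged mouse 1 overlapped the young mice there.

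**Figure D5:**
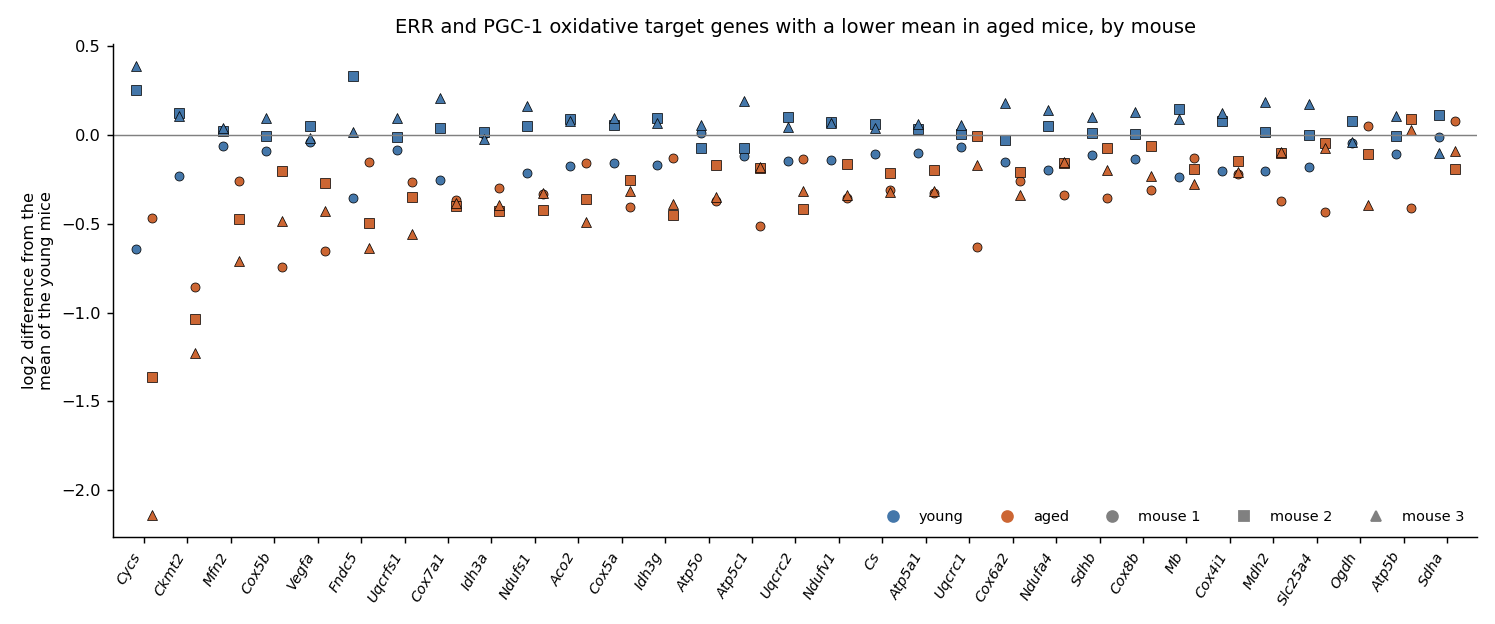
Difference of each mouse from the mean of the 3 young mice (vertical axis, log2) for the 31 ERR and PGC-1 oxidative target genes with a lower mean in aged mice, ordered by log2 fold change. Aged mice (orange) lie below the young mean in nearly all genes, with mean log2 differences of -1.33 in Cycs and -1.04 in Ckmt2 at the left end.

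Other measures were also lower in mean in aged mice, but not in the same pattern over the aged mice. Bright genes as a class had lower means in aged mice. Among all 1509 genes with a mean scaled log2 signal of at least 6 the median log2 fold change was -0.14, the aged mean was lower in 75.5%, and the aged mice were all below the young mice in 22.6%. In aged mice 1, 2 and 3 the median deviations of these bright genes were -0.27, -0.02 and -0.10. Those of the oxidative genes were -0.33, -0.20 and -0.32. Of the 32 oxidative genes, 27 had a mean of at least 6, and so had Esrra. Slow and oxidative fibre markers were lower in mean in 10 of 12 genes, with a median of -0.47 (-0.27 without aged mouse 3, -0.19 with the slide row as a block) and summed linear levels of 2453 to 3132 in young and 1894 to 2403 in aged mice. Atp2a2, the calcium pump of slow fibres, differed by -0.74 (adjusted p = 0.232 by limma), and by -0.47 when all its probes were averaged. The myoglobin gene Mb, which is on both lists, differed by -0.20. Fast glycolytic fibre markers were lower in 9 of 11 genes with a median of -0.17, which was 0.01 under quantile normalization. Median deviations in aged mice 1, 2 and 3 were -0.19, -0.34 and -0.88 for slow markers and -0.42, -0.03 and -0.05 for fast markers. The part of brightness and of fibre type in the levels of Esrra, Sirt3 and the oxidative genes was not tested.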

How the data were processed

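RNA of 6 gastrocnemius muscles was measured on single-colour Agilent arrays, 1 per mouse, all on 1 slide with 1 scan. The authors deposited Feature Extraction output with intensities on a linear scale, whose processed signal is background-subtracted and detrended but not scaled between arrays. The file header gives version 11.0.1.1 and the submitters' processing notes 9.5. The deposited series matrix held the same intensities (largest log2 difference 0). Of 62976 spots, 59305 were not controls. Flagged spots (161 to 212 per array) were dropped, spots averaged into 55681 probes (12 left out, with only flagged spots), and the 75th percentile of log2 signal subtracted. That percentile was a signal of 209 to 310, and 48.7% to 53.8% of probes were well above background. The number of arrays limits the precision.

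Accessions were matched to RefSeq (GRCm38.p6) for 28331 probes, and 27350 kept their identifier. The array was designed on another build, so no gene coordinates are given beyond the promoter windows. A gene was represented by its brightest probe on average, among unsaturated probes well above background on at least 3 of 6 arrays. The age groups were contrasted by limma (version 3.58.1, R 4.3.3) with its lmFit and eBayes functions in a model of age alone, after the fit had been tested on simulated data. In that test 0 of 50 genes given a log2 change of 0.5 were called, 8 of 50 given 1 and 33 of 50 given 2. For a single value, an exact two-sided permutation of 3 against 3 mice cannot go below 0.1.

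The 10 genes and the 17 lists (7 of pathways, 10 of fibre or cell types) were chosen with earlier results of these data known. Named are every member and, on each list, the largest higher and lower mean and, for markers, the brightest gene, apart from a gene that is not reported here. Genes named for groups that did not overlap, and Ckmt2, were chosen after their values were seen. Alternatives were normexp (offset 50) on median spot signals, quantile, median and detected-probe scaling, no filter or all 6 arrays, the mean of probes, the series matrix, a mean-variance trend, the slide row or replicate number as a block, and each mouse left out.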

Additional observations from a re-analysis of the deposited data

How the results depend on the processing

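Of the 17 alternatives, 5 leave the log2 fold changes of the 10 genes identical. Under the other 12, 102 of 120 kept their direction. Under all 17, none of the 10 genes passed the threshold. Esrra ranged from -0.66 to -0.29 (adjusted p 0.159 to 0.623) and Sirt3 from -0.70 to -0.46 (0.184 to 0.563), and these with Ppargc1b kept their sign throughout. With the slide row as a block, the signs turned for Ppargc1a (0.18), Ppara (0.29), Ppard (0.27), Esrrg (0.57), Nrf1 (0.29) and Sirt1 (0.17), and the median of the 10 genes was 0.20. By construction this block leaves aged mouse 1 against the young mice, and without aged mouse 1 age and slide row coincide. Other turns were Ppargc1a under quantile normalization (0.014) and scaling on detected probes (0.017), and Tfam under normexp (-0.049) and median scaling (-0.036). Leaving out 1 mouse gave -0.22 to 0.11 for Ppargc1a, -0.27 to 0.034 for Ppard, -0.21 to 0.10 for Nrf1 and -0.35 to -0.02 for the median of the 10 genes. The 53 genes past the threshold became 8 of 36710 with no filter (7 shared), 35 of 18551 with probes above background on all arrays (31 shared), 1 without aged mouse 3 and 199 without aged mouse 1. Of the pathway genes, 1 passed under normexp (Ckmt2, -1.18, adjusted p = 0.0386 by limma), 1 with a mean-variance trend (Ckmt2, adjusted p = 0.0429), and 0 to 1 with a mouse left out (Nmrk2, without aged mouse 1). The cause of these shifts was not tested. There was no sign that the replicate numbers pair the mice. Deviations of same-numbered mice correlated at -0.06, -0.27 and 0.03, and 0 of 3 young mice correlated best with their own number. With 3 mice in a group this cannot exclude a pairing. With the replicate block, 5 genes and 0 of the 10 members passed, with a smallest adjusted p of 0.453 among the members. Slide and scan could not be blocks, with 1 of each. Signal over background limits Ppargc1b most, with signals of 32.2 to 49.8.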

Other observations

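Markers of other cells in the muscle moved with age in these arrays, none past the threshold by limma, and their part in the values above was not tested. Skeletal muscle markers were present at high level on every array. Their median log2 fold change was -0.08, with 7 of 10 lower, but 0.05 with 9 of 10 higher under quantile normalization, and Ckm had a mean of 9.85 ± 0.18 (SD, n = 3) in the young and 9.67 ± 0.23 (SD, n = 3) in the aged. Erythrocyte markers were lower in 5 of 5 tested genes, with a median of -1.03 and summed linear levels of 635 to 922 in young and 289 to 459 in aged mice, and 4 further listed genes were not tested. The brightest of them, Hba-a2, differed by -0.91 (adjusted p = 0.174 by limma). Fibroblast markers were lower in 6 of 8 (median -0.47, sums 462 to 524 against 240 to 353), with Col1a1 at -1.56 and Dcn at -0.85. Without aged mouse 1 the median was -0.13 and Col1a1 was at -0.90, and without aged mouse 3 Dcn was at -0.50. Endothelial markers were lower in 6 of 9 (median -0.31, sums 97.3 to 131 against 69.6 to 90.0), with Cdh5 at -0.79, all 3 aged mice below the young mice. Their median was -0.16 without aged mouse 3 and 0.03 with the slide row as a block. Cardiac and smooth muscle markers were lower in 4 of 6 (median -0.33, and -0.14 without young mouse 3), and the atrial gene Myl7 was not tested.

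Macrophage markers were higher in 8 of 10 tested genes, with a median of 0.51, and the aged mice were all above the young mice in 6 of them, against 7.92% of all genes. Their summed levels overlapped, at 44.5 to 52.3 in young and 50.9 to 53.2 in aged mice. Lyz2 had the largest higher mean, 1.36 (adjusted p = 0.406 by limma), which was 0.65 without young mouse 3. Itgam, the brightest marker, was lower in mean (-0.26). Adipocyte markers were lower in 6 of 9 (median -0.21, sums 146 to 154 against 112 to 148), Fabp4 by -0.21, and Lep was not tested. With the slide row as a block their median was 0.20, with 6 of 9 higher. Of the brown adipocyte markers, which mark a tissue known for high Ppargc1a, Ucp1 and Elovl3 were not tested because no probe was above background on enough arrays. Of the 3 tested, Dio2 differed by 0.52 without overlap of the groups (adjusted p = 0.299 by limma), Otop1 by -0.43, and Cidea by 0.24, or -0.14 without aged mouse 1.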
